A study of Mus musculus with 8 samples.

Results

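Serpina3n, Gfap, Cd14 and Irf8 are genes of reactive glia and of innate immune cells. All 4 were lower in oligodendrocyte progenitors (OLP) silenced for Klf6 than in control OLP. They were chosen by that same difference, so the values below describe it and do not test it. Each of the 4 had a row among the 275 of the OLP table and 0 had one among the 112 of the table for immature oligodendrocytes (iOL), out of 337 different rows in both tables together. A row is a gene, or a few overlapping genes, that the authors marked as significant.

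The cultures came from the cerebral cortex of C57BL/6 mouse pups. According to the methods of the study, dissociated cells were panned on lectin-coated plates to deplete microglia, and those that adhered to an antibody against the progenitor receptor Pdgfra were kept. OLP were plated with PDGF-AA at 10 ng/ml and bFGF at 20 ng/ml, and iOL were the same cells after T3, a thyroid hormone, at 40 ng/ml for 18 h. Every culture had been nucleofected, either with an siRNA that silences Klf6 (siKlf6) or with a non-targeting one (NT), so the control cells carried an siRNA too. Klf6 is a zinc finger transcription factor induced by cytokines that signal through the receptor gp130. The 4 groups, OLP NT, OLP siKlf6, iOL NT and iOL siKlf6, each held 2 cultures. CuffDiff had reduced the cultures of a group to a single FPKM (fragments of a transcript scaled to its length in kilobases and to the mapped fragments of the library), so no spread between cultures can be given for any value, and the depth of the libraries is unknown. Of 10 OLP markers, 0 were listed in OLP and 1, Sox10, in iOL, so the labelled cell type could not be checked against its defining genes. The silenced gene itself, Klf6, stood at 38.6 FPKM in NT OLP and 20.0 FPKM in siKlf6 OLP, and it was not listed in iOL.

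Glia respond to injury and to inflammatory cytokines with a change of expression known as reactivity. Astrocytes then raise the intermediate filament protein Gfap and secrete acute-phase proteins, part of this through cytokine receptors that use gp130 and the transcription factor Stat3. Microglia, the resident macrophages of the brain, sense microbial products through Toll-like receptors and their co-receptor Cd14, and they depend on transcription factors such as Irf8 for their identity. Oligodendrocyte lineage cells can express some of these genes as well.

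The genes were chosen by their shared direction after silencing, and a common regulator of them was not tested. The sequences just before the starts of 3 of the genes are shown first. These are the 250 bases before the annotated start, taken from the RefSeq promoter table and placed by exact match in NCBIM37, the genome build (mm9) named for these data. Capitals mark matches, on either strand, to the letters of a CACCC box (CACCC), a GC box (GGGCGG) or a GAS element (TTCNNNGAA), which Klf/Sp factors and Stat factors are known to bind. The letters of an AP-1 site (TGANTCA) and of an interferon response core (GAAANNGAA) were searched too. No match overlapped one of another kind. The starts are those of RefSeq, and in GENCODE M1 the gene model of Gfap extends further upstream, so that its window falls within it.

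Serpina3n (chr12:105644668-105644917, plus strand): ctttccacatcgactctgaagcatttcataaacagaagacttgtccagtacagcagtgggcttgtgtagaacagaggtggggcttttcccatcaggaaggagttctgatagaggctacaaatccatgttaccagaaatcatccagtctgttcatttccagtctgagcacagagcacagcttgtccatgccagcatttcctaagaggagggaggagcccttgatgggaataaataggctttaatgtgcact

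Gfap (chr11:102758515-102758764, minus strand): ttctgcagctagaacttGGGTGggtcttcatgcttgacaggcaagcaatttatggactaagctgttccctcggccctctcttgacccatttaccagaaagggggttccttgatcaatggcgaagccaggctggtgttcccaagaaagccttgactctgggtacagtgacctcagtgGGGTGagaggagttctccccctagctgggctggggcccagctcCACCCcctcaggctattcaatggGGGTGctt

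Irf8 (chr8:123260008-123260257, plus strand): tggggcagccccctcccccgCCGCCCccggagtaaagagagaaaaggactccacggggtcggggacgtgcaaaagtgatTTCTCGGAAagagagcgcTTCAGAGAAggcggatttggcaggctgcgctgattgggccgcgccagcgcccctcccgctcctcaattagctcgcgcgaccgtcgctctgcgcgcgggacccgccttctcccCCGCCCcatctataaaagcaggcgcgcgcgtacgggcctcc

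The 3 windows had no match in common. The window of Serpina3n held none of the 5 motifs. That of Gfap held 4 CACCC boxes, the closest at bases -8 to -4 before the start. That of Irf8 held 2 GAS elements, at -171 to -163 and -153 to -145, and 2 GC boxes. Among the 32851 windows of the same length in the table, 52.0% held a CACCC box, 32.7% a GC box, 7.02% a GAS element, 6.75% an AP-1 site and 7.13% an interferon response core. A match of letters is not evidence that a factor binds there, and a missing match says only that the letters are not in this window. The study also mapped Klf6 binding in OLP and iOL by chromatin immunoprecipitation and sequencing. Those data were not used here. The window of Cd14 is not shown here.

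Serpina3n encodes a secreted serine protease inhibitor of the acute-phase response and is a widely used marker of reactive astrocytes. It was the most abundant of the 4 in control cells. Its level was 27.9 FPKM in NT OLP and 1.27 FPKM in siKlf6 OLP, a 21.9-fold lower value and a log2 ratio of siKlf6 over NT of -4.45. By that ratio it was number 4 of 275 from the most lowered row. The gene (ENSMUSG00000021091.8, chromosome 12, 105644939 to 105652539, plus strand) has 1 annotated coding transcript of 2064 bases in 5 exons. It belongs to a cluster of close copies. Of its 50-base words, 6.75% also occurred in transcripts of Serpina3b, Serpina3c, Serpina3f, Serpina3g, Serpina3j or Serpina3m, so reads from that portion could have been divided among genes. None of these 6 copies had a row in either table.

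Gfap, the intermediate filament protein of astrocytes, showed the largest proportional difference of the 4. It stood at 3.06 FPKM in NT OLP and 0.0752 FPKM in siKlf6 OLP, 40.7-fold lower, with a log2 ratio of -5.35 and position 3 of 275. The value in silenced cells was close to nothing. Multiplied by the 2648 bases of its longest coding transcript, it corresponds to about 0.199 FPM (the same scale without the division by length), against 8.11 FPM in NT. The gene (ENSMUSG00000020932.8, chromosome 11, 102748650 to 102762226, minus strand) has 2 annotated coding transcripts, the longest of 9 exons.

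Cd14 encodes a surface co-receptor for bacterial lipopolysaccharide, which it passes to Toll-like receptor 4. Its values were 1.91 FPKM in NT OLP and 0.146 FPKM in siKlf6 OLP, a 13.1-fold lower level with a log2 ratio of -3.71 and position 10 of 275. For its transcript of 1572 bases these values correspond to 3.01 and 0.229 FPM. Cd14 was thus at a low level in control cells, and in silenced cells its FPM was close to that of Gfap.

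Irf8, a transcription factor of the interferon regulatory factor family required for macrophages and microglia, differed least. Its 1.81 FPKM in NT OLP and 0.667 FPKM in siKlf6 OLP gave a 2.71-fold lower value and a log2 ratio of -1.44. It held position 77 of 275, far from the other members. The gene (ENSMUSG00000041515.3, chromosome 8, 123260258 to 123280594, plus strand) has 4 annotated coding transcripts, the longest of 2847 bases in 9 exons, for which the values correspond to 5.15 and 1.90 FPM.

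**Figure D1:**
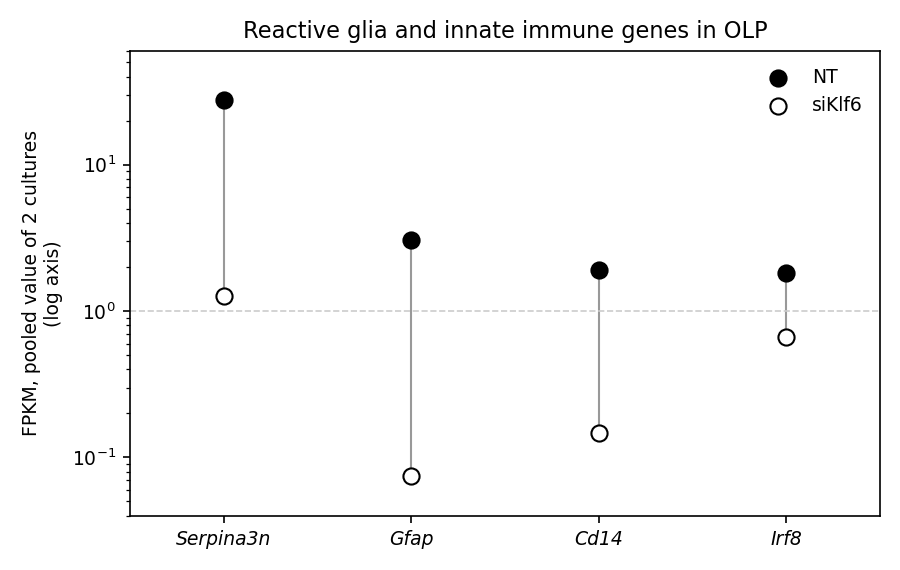
Pooled FPKM of the 4 genes in NT (filled) and siKlf6 (open) OLP on a log axis, with a dashed line at 1 FPKM. A point is the authors' single value for 2 cultures, so no error bar can be drawn. Serpina3n is the only one of the 4 that stays above 1 FPKM after silencing, at 1.27.

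In control OLP the order of levels per length was Serpina3n, Gfap, Cd14 and Irf8, and the last pair lay at 1.91 and 1.81 FPKM. Without values for single cultures it is not known which neighbours in this order differ. The order changed after silencing to Serpina3n, Irf8, Cd14 and Gfap. Gfap, Cd14 and Irf8 were weakly expressed even in NT, below the median of 9.58 FPKM over all listed OLP rows. In siKlf6 these same genes were under 1 FPKM, which was true of 21.5% of listed OLP rows.

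All 4 genes were at least 2-fold lower in siKlf6, a size reached by 47.6% of all listed OLP rows (131 of 275). Serpina3n, Gfap and Cd14 were also at least 4-fold lower, as were 17.1% of listed rows (47 of 275). The direction is the common one in this table, where 78.5% of rows were lower and the median log2 ratio was -0.98. Since the genes were picked from this contrast, nothing is read from these shares. Rows that did not pass the authors' threshold are not in the table, so these are shares of significant rows and not of all genes.

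**Figure D2:**
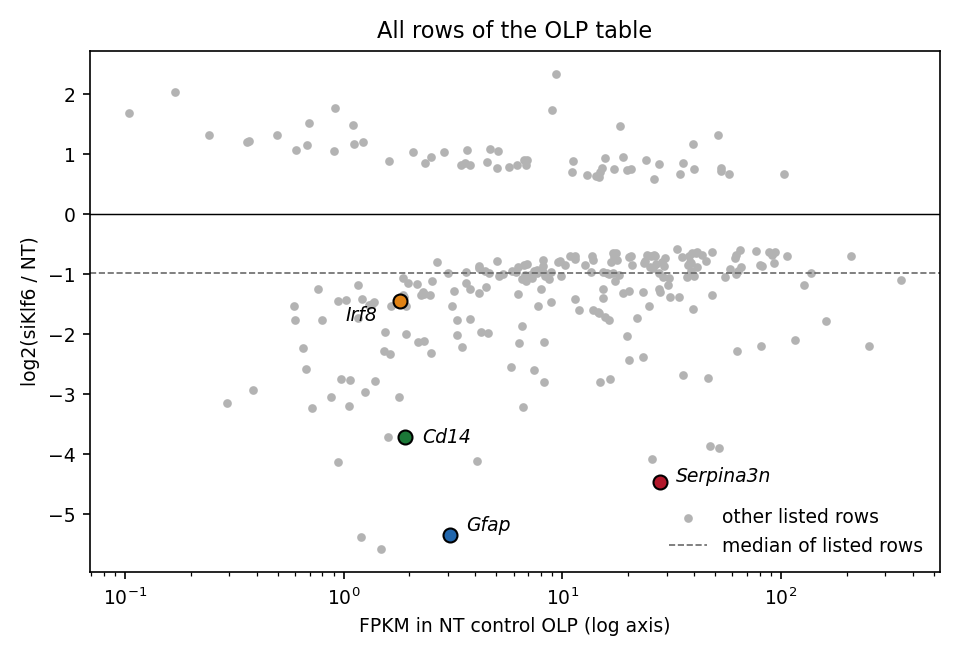
Each point is a row of the OLP table, with FPKM in NT OLP on the x axis (log) and the log2 ratio of siKlf6 over NT on the y axis. The dashed line is the median of -0.98. Serpina3n, Gfap and Cd14 lie at -4.45, -5.35 and -3.71 near the lower edge, and Irf8 at -1.44 lies among many rows.

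The proportional differences of Gfap, Cd14 and Irf8 depend on how low values are treated. With 1 FPKM added to both conditions before taking log2, Serpina3n was at -3.67 and became number 1 of 275. Gfap was then at -1.92 (number 18), Cd14 at -1.35 (number 37) and Irf8 at -0.75 (number 141). On that scale Serpina3n stood well apart from the other 3 members, and Irf8 no longer reached a 2-fold difference. The median over all listed OLP rows was -0.76 on that scale.

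**Figure D3:**
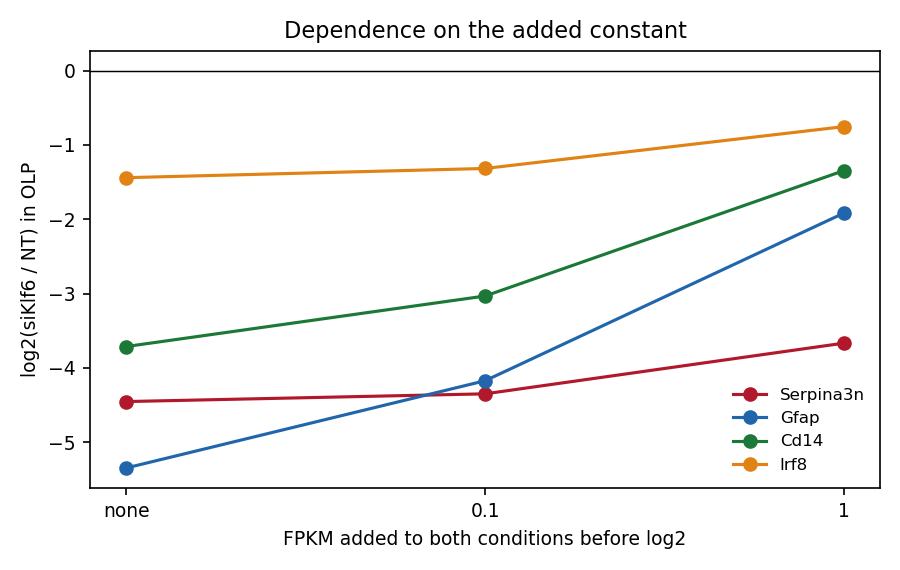
Log2 ratio of siKlf6 over NT in OLP for the 4 genes with no constant, 0.1 FPKM or 1 FPKM added to both conditions before log2. Gfap moves from -5.35 to -1.92, while Serpina3n moves only from -4.45 to -3.67.

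The genes with values most like these were sought in the OLP table, by distance in the plane of log2(FPKM + 1) in NT and in siKlf6. This measure uses only 2 pooled values for a gene. Nearest to Serpina3n was Fosl2, an AP-1 subunit, at 25.8 and 1.54 FPKM in NT and siKlf6 (distance 0.191), followed by Csrnp1 (distance 0.943). Nearest to Gfap were Socs2, an inhibitor of cytokine signaling, at 4.06 and 0.236 FPKM (distance 0.375), and Cd14 itself (distance 0.488). Cd14 had Smagp (distance 0.105) beside it, and Irf8 had Gabbr2 (distance 0.0576) and Bdnf (distance 0.0674). Those next to Irf8 encode a GABA receptor subunit and a neurotrophin. By log2 ratio alone, Gfap stood between Runx1 and Serpina3n, Serpina3n was followed by Il1r1, the interleukin-1 receptor, Cd14 followed Junb, and Irf8 between Lonrf1 and Ndrg1.

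Reactive astrocyte genes, which include the members Serpina3n, Gfap and Cd14, were examined as lists. Of all listed OLP rows, 78.5% were lower. Of 13 pan-reactive astrocyte genes, 4 were listed in OLP, all lower, with a median log2 ratio of -4.90 against -0.98 over all listed rows. With 1 FPKM added these medians were -1.59 and -0.76, and of the 4 genes only Serpina3n was above 1 FPKM in siKlf6. Besides Serpina3n and Gfap the 4 were Osmr and S1pr3. Osmr, the oncostatin M receptor, was at 1.49 FPKM in NT and 0.0313 FPKM in siKlf6 (-5.57). S1pr3, a sphingosine-1-phosphate receptor, was at 0.654 and 0.139 FPKM (-2.23). The median of that pair was -3.90. With 1 FPKM added they were at -1.27 and -0.54, on either side of the -0.76 over all listed rows. Lcn2, Vim, Cd44, Timp1 and the rest had no row. Of 12 A2 genes, linked to reactivity after ischemia, 4 were listed and lower: Cd14, the kinase Sphk1 (1.26 to 0.160 FPKM, -2.97), the membrane protein Tm4sf1 (6.35 to 1.43 FPKM, -2.15) and S100a10 (127 to 56.3 FPKM, -1.18). Without the member Cd14, 3 of 11 A2 genes were listed. Of 12 A1 genes, linked to reactivity after inflammation, 0 were listed in OLP. Many of these genes are not restricted to astrocytes, and S100a10 was abundant in control OLP.

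Innate immune genes gave fewer rows. Of 30 genes of Toll-like receptor and NF-kB signaling, 3 were listed in OLP. Besides Cd14 these were the adaptor Tirap, at 6.26 FPKM in NT and 2.49 FPKM in siKlf6 (-1.33), and a row that joins the kinase gene Irak1 to Mir5132 and Mir718. That row was higher in siKlf6, at 51.5 FPKM in NT and 128 FPKM in siKlf6 (1.31), and reads of its overlapping genes cannot be told apart. The median of the 3 was -1.33, and without Cd14 that of the remaining pair was -0.01, since they differed in opposite directions. No Toll-like receptor was listed. Of 24 genes of interferon regulation and signaling, 3 were listed, all lower, as were 78.5% of all listed OLP rows. Their median was -1.44 (-0.79 with 1 FPKM added), against -0.98 (-0.76) over all listed rows. Irf1, a family member induced by interferon and by Stat factors, was far more abundant than Irf8 and had 23.3 FPKM in NT OLP against 4.50 in siKlf6 OLP (-2.37). Of 15 complement genes 0 were listed.

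Cytokine signaling and its targets were examined next. Over all listed OLP rows 78.5% were lower, and the median was -0.98 (-0.76 with 1 FPKM added). The lists overlap with those above, since Serpina3n, Gfap and Osmr are also pan-reactive astrocyte genes. Of 25 acute-phase and Stat3-responsive genes, 9 were listed in OLP, 8 lower and 1 higher, with a median of -2.19 (-1.23 with 1 FPKM added). Without Serpina3n and Gfap it was -1.77 over 7 genes. The AP-1 subunits Junb (47.6 FPKM in NT, 3.26 FPKM in siKlf6, -3.87) and Fos (80.7 and 17.7 FPKM, -2.19), the adhesion molecule Icam1 (2.52 and 0.504 FPKM, -2.32) and Cebpb, a transcription factor of the acute-phase response (3.29 and 0.966 FPKM, -1.77), were among the lower ones. Bcl6, a transcriptional repressor, was the higher one (3.59 and 6.52 FPKM, 0.86). Of 16 genes that encode receptors of the gp130 family, their kinases, Stat3 or inhibitors, 7 were listed and lower, with a median of -2.73 (-1.43 with 1 FPKM added). They include Il6st, which encodes gp130 itself, at 25.0 FPKM in NT and 8.63 FPKM in siKlf6 (-1.53), the feedback inhibitors Socs3 (46.6 and 7.02 FPKM, -2.73) and Cish (8.29 and 1.19 FPKM, -2.80), and Stat3 (91.0 and 56.8 FPKM, -0.68). Of 25 cytokine and chemokine genes, 2 were listed and lower: Ccl2, a chemokine that attracts monocytes, at 7.41 and 1.23 FPKM (-2.59), and Csf1, the growth factor of microglia, at 11.5 and 6.82 FPKM (-0.75).

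Of 15 intermediate filament genes, 2 were listed in OLP, Gfap and Nefl, the light neurofilament, at 4.59 and 1.16 FPKM (-1.99). Without the member Gfap, 1 of 14 was listed. Of all listed OLP rows, 78.5% were lower, with a median of -0.98.

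**Figure D4:**
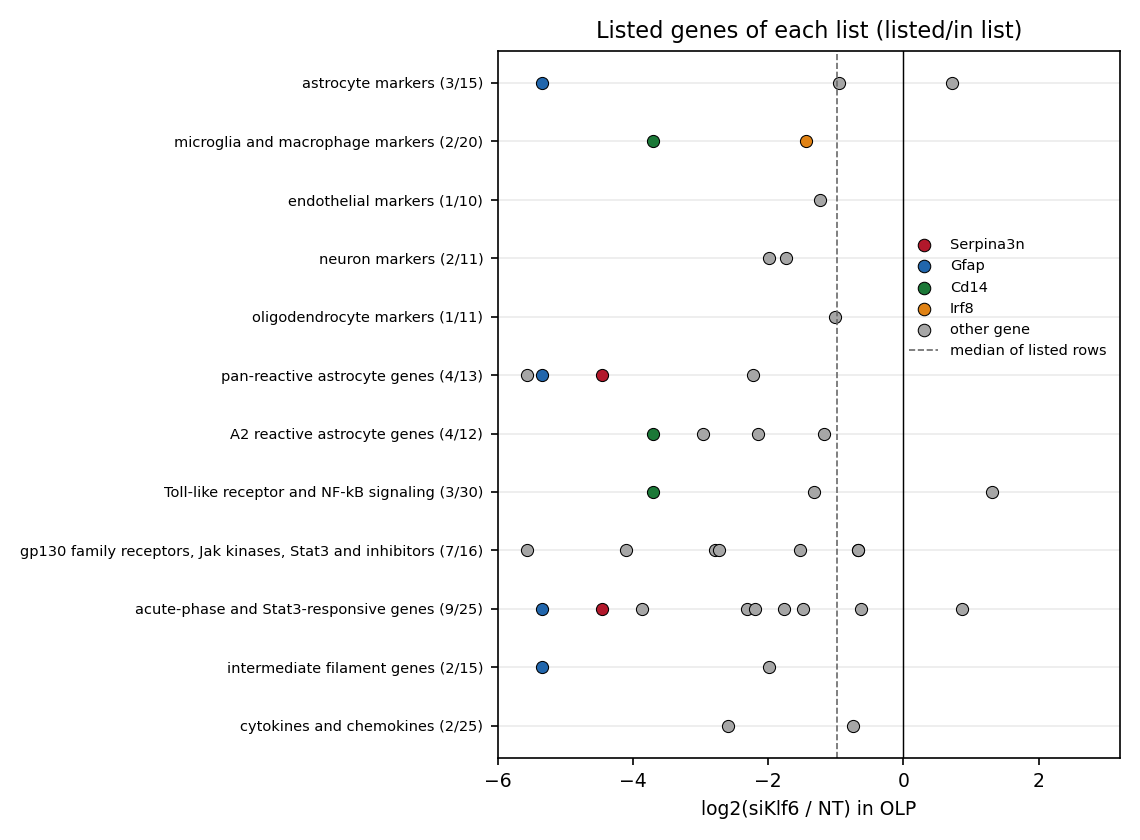
Log2 ratio of siKlf6 over NT in OLP for every listed gene of 12 lists, with the number listed and the size of the list on the axis. The serpin and interferon lists, which also had listed genes, are not drawn. Colours mark the 4 genes, grey points are others, and the dashed line is the median of -0.98 over all listed rows. Of the pan-reactive astrocyte genes 4 of 13 and of the acute-phase and Stat3-responsive genes 9 of 25 have a point, and Sox9, Irak1 and Bcl6 lie above 0.

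Gfap, Cd14 and Irf8 are also markers of astrocytes or microglia, so those marker lists are given whole. By the methods of the study, nearly all cells carried OLP markers at plating. The share at harvest, after nucleofection, is not given there. Of 15 astrocyte markers, 3 were listed in OLP. Gfap and the cytosolic protein Ndrg2 (13.5 FPKM in NT and 6.94 FPKM in siKlf6, -0.96) were lower, and the transcription factor Sox9, which OLP express too, was higher (53.4 and 87.8 FPKM, 0.72). Their summed level was 69.9 FPKM in NT and 94.8 FPKM in siKlf6, and the higher sum came from Sox9 alone, since the other two were lower. Of 20 microglia and macrophage markers, Cd14 and Irf8 were the 2 listed, with a summed level of 3.72 FPKM in NT and 0.813 FPKM in siKlf6. Both are members chosen for being lower, so the lower sum follows from that choice. Without them, 0 of 18 markers were listed. No other marker on that list, Cx3cr1, Aif1, Itgam, Csf1r, Tyrobp and the C1q genes included, had a row, so whether they were at 0, low or unchanged is not known.

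Markers on the remaining cell type lists that had a row were lower in siKlf6, as were 78.5% of all listed OLP rows. These were Kdr of 10 endothelial markers (0.764 and 0.323 FPKM, -1.24), Tubb3 (22.0 and 6.62 FPKM, -1.73) and Nefl of 11 neuron markers, and Cldn11 of 11 oligodendrocyte markers (18.2 and 8.97 FPKM, -1.02). Of 10 pericyte and fibroblast markers 0 were listed. In bulk RNA, fewer cells of a type and less RNA of a gene in each cell cannot be told apart. The part of astrocytes, microglia or other cells in the lower level of the 4 genes was not tested.

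None of the 4 genes was listed in iOL. This was also true of 81.8% of listed OLP rows (225 of 275), and a gene without a row may have been unchanged, weakly expressed or just outside the authors' threshold. Whether the genes responded differently at the 2 stages was therefore not tested. In iOL, where 45.5% of the 112 rows were lower in siKlf6, 1 of 15 astrocyte markers was listed, Ndrg2, at 25.9 FPKM in NT and 9.55 FPKM in siKlf6 (-1.44). S100a10 was the A2 gene with a row, at 61.6 and 27.7 FPKM (-1.15), and Cxcl14 the chemokine, at 15.2 and 8.27 FPKM (-0.88). Fgl2, on the acute-phase list, was higher at 0.400 and 0.961 FPKM (1.27). Of the microglia, pan-reactive astrocyte, Toll-like receptor, interferon and gp130 lists, 0 genes had a row in iOL.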

How the data were processed

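RNA of 8 cultures was sequenced, 2 in each of 4 groups that the sample titles give. According to the methods of the study and the submitters' processing notes (CASAVA 1.8, TopHat2, Cuffdiff), adapter-trimmed reads were mapped to mm9 with TopHat, quantified with Cufflinks and compared with CuffDiff under default settings. The authors deposited 1 table for each stage, which held significant rows only and a pooled FPKM for each condition. The authors' fold changes, test statistics and p-values were also present and were not used. The depth of each library is unknown, and no error between cultures, interval or test could be computed.

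Log2 ratios of siKlf6 over NT were computed from the FPKM in Python 3.11.15 (pandas 2.3.3, numpy 2.4.6), with no constant added. A constant of 0.1 or 1 FPKM, filters at 1 FPKM, a 4-fold limit, centring on the median of listed rows and single-symbol rows were alternatives. The functions were tested on simulated data. The members and the 18 gene lists were chosen with earlier results of these data known. Genes named are the members, Klf6, up to 6 listed genes of each list, for each member the 2 nearest single-symbol rows with a locus of at least 500 bp and the rows beside it in the order of ratios. Bcl6 was added as the 1 higher gene of its list. Gene positions are from GENCODE M1 on NCBIM37, the same assembly as mm9. Some genes that this rule names are not reported here.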

Additional observations from a re-analysis of the deposited data

How the results depend on the processing

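No paired analysis was possible because each condition has only the authors' pooled FPKM, and for the same reason no culture could be left out in turn. What depth limits cannot be stated, since total counts are unknown. All 12 recalculated log2 ratios of the members stayed below 0, and the 8 with an added constant could not have changed sign. With 0.1 FPKM added they were -4.35 for Serpina3n, -4.17 for Gfap, -3.03 for Cd14 and -1.32 for Irf8. With 1 FPKM added they were -3.67, -1.92, -1.35 and -0.75. Centred on the median of listed rows (-0.98), which is no neutral reference because the rows are significant ones, they were -3.47, -4.37, -2.73 and -0.46. Requiring 1 FPKM in both conditions left 1 of the 4 members at least 2-fold lower, Serpina3n. The share of listed OLP rows at least 2-fold lower (47.6%) was then 36.7%, and it was 25.8% with 1 FPKM added, 17.1% at 4-fold and 17.8% after centring. In iOL that share was 13.4%, and 5.36%, 0.893% and 45.5% with 1 FPKM added, at 4-fold and after centring. With 1 FPKM added, list medians in OLP were -0.86 for astrocyte markers, -1.59 for pan-reactive and -1.25 for A2 genes, -1.06 for Toll-like receptor, -0.79 for interferon and -1.43 for gp130 signaling, and -1.23 for acute-phase genes. Each of these lists except gp130 signaling holds members chosen by this contrast, which pull its median. Without Gfap and with no constant, the astrocyte median was -0.12, from 1 lower and 1 higher gene. Requiring 1 FPKM in either condition removed S1pr3 and moved the pan-reactive median to -5.35, which is the value of the member Gfap itself. It left 0 endothelial markers lower in OLP and 0 acute-phase genes higher in iOL. Single-symbol rows alone left 0 Toll-like receptor genes higher and a median of -2.52. The other 47 of 50 recalculated list counts stayed within 1.5 times.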

Other observations

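Other immune genes of the OLP table are given here, 11 in all, chosen after their values were seen. They were picked among lowered rows, so that all 11 were lower in siKlf6 is a matter of the choice, and immune genes that were higher were not tallied. Of all listed OLP rows, 78.5% were lower. In iOL 0 of the 11 had a row, and 81.8% of listed OLP rows likewise had none there. They include 4 receptors of inflammatory cytokines. Tnfrsf1a, the main receptor of tumor necrosis factor, stood at 65.6 FPKM in NT OLP and 35.5 FPKM in siKlf6 OLP (log2 ratio -0.89), and Ltbr, the lymphotoxin beta receptor, at 23.4 and 9.56 FPKM (-1.29). Il1r1, which binds interleukin-1, was scarce at 0.946 and 0.0544 FPKM (-4.12), and Il17ra, a receptor of interleukin-17, was at 1.96 and 0.884 FPKM (-1.15). The receptors Tnfrsf1a and Ltbr were therefore more abundant in control OLP than Gfap, Cd14 or Irf8.

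The 11 also include transcription regulators, from no list and with no count of how many such genes were measured. Runx1 was at 1.20 FPKM in NT OLP and 0.0288 FPKM in siKlf6 OLP (-5.38), Fli1 at 0.677 and 0.113 FPKM (-2.58), and Prdm1 at 0.292 and 0.0330 FPKM (-3.14). Nfil3 was better expressed, at 11.9 and 3.93 FPKM (-1.59). Nlrc5, a co-activator of major histocompatibility complex class I genes, was at 1.07 and 0.158 FPKM (-2.76). The interferon-induced genes Parp14 and Irgm1 were at 0.388 and 0.0510 FPKM (-2.92) and at 15.3 and 5.82 FPKM (-1.40). Of the 11 genes, 7 were under 1 FPKM in siKlf6 OLP, so their ratios rest on very low values. Among all listed OLP rows 21.5% were under 1 FPKM in siKlf6. In NT OLP, 4 of the 11 were under 1 FPKM.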
